A study of Mus musculus with 12 samples.

Results

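T cell receptor gene segments were followed on 12 mouse Affymetrix arrays. They were taken as the probe sets whose platform annotation names 1 gene symbol only, that of a V, D, J or C segment of the alpha, beta, gamma or delta receptor locus. Of 41345 probe sets, 23521 name 1 symbol, and 21 of these name a receptor segment. All 21 name a V segment and stand for 8 segments: 18 probe sets for 5 alpha segments (Trav12-2, Trav14d-3-dv8, Trav3-4, Trav7-4 and Trav9d-3), 1 for the beta segment Trbv13-2, and 1 each for the gamma segments Trgv5 and Trgv6. The 21 probe sets hold 19 different series of values, because 2 pairs of Trav12-2 probe sets have identical values on every array.

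The 4 groups had 3 arrays each, n = 3 throughout. They were spleen leukemia cells of a mouse model driven by NOTCH1, colonies positive for GFP (GFP+) and labelled partially reprogrammed, colonies negative for GFP (GFP-) and labelled reprogrammed, and iPS (induced pluripotent stem) cells that the labels call established. All 4 groups carry the mouse genotype R26rtTA;Col1a12lox-4F2A, which places a doxycycline-controlled transactivator at the Rosa26 locus and an inducible cassette of reprogramming factors at Col1a1. The labels describe both colony groups and the iPS cells as grown out of the leukemia. The labels do not say what GFP marks, and the leukemia titles all bear the number 1. The arrays are titled biological replicates, but no animal or culture is named, and a p-value then reflects only how much these arrays vary, which may be technical.

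T cells recognise antigen through a receptor of an alpha and a beta chain, or of a gamma and a delta chain. In the thymus the recombinase joins 1 of many V segments to J segments, with D segments in between at the beta and delta loci, and splicing links the joined exon to a constant region. The beta chain is assembled first and pairs with an invariant pre-T alpha chain, and alpha joining follows. A clone descended from 1 T cell shares its joins, so V segment RNA is a common readout of clonality in T cell leukemia. The mouse alpha locus holds families of near-identical V copies, marked d or n in the symbol, and probes designed for one copy can read another, so the values below are given for the probe set and the symbol is that of the annotation.

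The array covers few segments in a form that names 1 symbol. RefSeq (GRCm38.p6, used here for names and neighbours) lists 270 T cell receptor segments, of which 8 had such a probe set: 5 of 130 alpha V, 1 of 35 beta V, 2 of 7 gamma V and 0 of 6 delta V segments. No D, J or C segment was named by such a probe set, and neither were the 60 alpha and 14 beta J segments. This compares symbols only, and which part of a locus the probes read was not examined. How many different rearrangements the leukemia held was therefore not measured. The alpha segments lie on chromosome 14, Trbv13-2 on chromosome 6 between Trbv12-2 and Trbv12-3, and the gamma segments beside each other on chromosome 13.

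All values are log2 levels after robust multi-array averaging (RMA), each difference carries its standard error from the limma fit, and a call is a Benjamini-Hochberg adjusted p under 0.05 over all 23521 single-symbol probe sets. Arrays of a group correlated at 0.994 in the leukemia, 0.995 in iPS cells, 0.936 to 0.975 in GFP+ and 0.888 to 0.970 in GFP- colonies. Replicate 3 of the GFP+ and replicate 1 of the GFP- colonies were set apart by the lowest mean of 7 pluripotency markers (7.55 and 6.58, against 8.43 to 9.88 on the other colony arrays). The T cell label of the leukemia was checked on 6 measured T cell markers, whose mean was 10.80 to 10.85 on leukemia arrays, 5.79 to 6.85 on GFP+, 5.38 to 6.34 on GFP- and 5.61 to 5.99 on iPS arrays. Neutrophil markers were also high on the spleen arrays. The mean of 6 such markers was 9.36 to 9.43 there and 4.80 to 5.34 on all other arrays. Whether this RNA came from other blood cells or from the leukemia cells was not tested, nor was the part of other cells in the V segment values.

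A minority of the V probe sets were bright in the leukemia. Set against iPS cells on the same probe set, 7 of 21 had a leukemia mean higher by a log2 of 2 or more, beside 2.06% of all single-symbol probe sets. These 7, called raised below, were 6 of 18 alpha, 1 of 1 beta and 0 of 2 gamma probe sets. At a log2 of 1 the same 7 passed, beside 6.14% of all, and at a log2 of 3 there were 6, beside 0.901%. The lowest raised probe set stood 2.61 above iPS cells, and the highest of the other 14 stood 0.94 above.

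**Figure D1:**
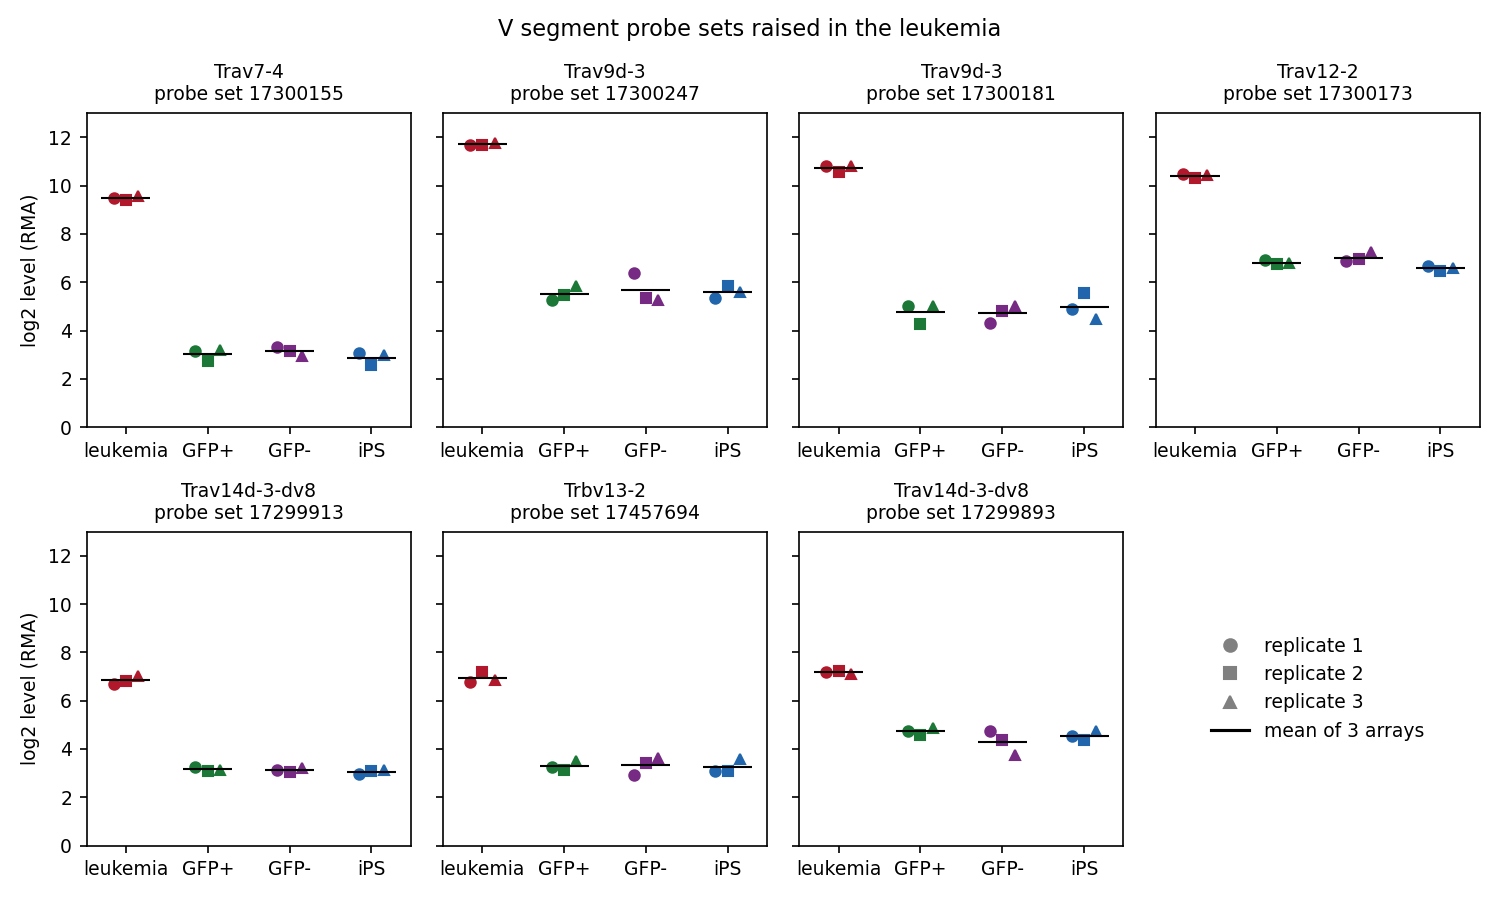
Log2 level (RMA) of the 7 raised V probe sets on each array, by group, with a line at the mean of 3 arrays and a marker shape for each replicate. On every one of the 7, the leukemia arrays lie above all 9 other arrays, and the colony and iPS arrays lie together.

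No detection values were used, so the low levels outside the leukemia are not shown to be above background, and the differences below are those of the deposited log2 values and no measured ratios of RNA. The Trav7-4 probe set 17300155 read 9.49, 9.39 and 9.56 on the leukemia arrays, 3.15, 2.74 and 3.19 in GFP+ colonies, 3.30, 3.16 and 2.95 in GFP- colonies, and 3.07, 2.57 and 3.0 in iPS cells. All 3 leukemia arrays were high and all 9 others low, with no overlap. The leukemia mean was 9.48 ± 0.09 (SD), and iPS cells were lower by 6.60 ± 0.17 on the log2 scale (limma adjusted p = 4.41e-09). The value fell by 6.45 ± 0.17 in GFP+ and by 6.34 ± 0.17 in GFP- colonies.

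Trav9d-3 had 2 raised probe sets. Probe set 17300247 read 11.68, 11.67 and 11.77 in leukemia, 5.25, 5.47 and 5.86 in GFP+ colonies, 6.40, 5.36 and 5.24 in GFP- colonies and 5.34, 5.84 and 5.60 in iPS cells. Probe set 17300181 read 10.81, 10.57 and 10.83 in leukemia, 5.0, 4.25 and 5.01 in GFP+ colonies, 4.32, 4.81 and 5.03 in GFP- colonies and 4.87, 5.56 and 4.47 in iPS cells. In both, the leukemia arrays lay above every other array, and the colony arrays overlapped with the iPS arrays. GFP- replicate 1 was the highest colony array on the first probe set and the lowest of its group on the second. The leukemia stood 6.11 ± 0.28 above iPS cells on 17300247 (adjusted p = 1.59e-07) and 5.77 ± 0.30 on 17300181 (adjusted p = 3.53e-07).

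One Trav12-2 probe set of 6 was raised. Probe set 17300173 read 10.47, 10.33 and 10.43 in leukemia, 6.90, 6.76 and 6.78 in GFP+ colonies, 6.86, 6.96 and 7.23 in GFP- colonies and 6.69, 6.45 and 6.60 in iPS cells. The leukemia arrays again stood alone at the top. This probe set was the one among the 7 where both colony groups also lay above all 3 iPS arrays, by a far smaller step. Leukemia stood 3.83 ± 0.12 above iPS cells (adjusted p = 1.17e-08).

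Trav14d-3-dv8 is a segment that the annotation assigns to both the alpha and the delta chain, since it can join to either. Probe set 17299913 read 6.70, 6.81 and 7.02 in leukemia, 3.27, 3.09 and 3.13 in GFP+ colonies, 3.11, 3.05 and 3.22 in GFP- colonies and 2.95, 3.07 and 3.14 in iPS cells. Probe set 17299893 read 7.19, 7.22 and 7.09 in leukemia, 4.75, 4.57 and 4.88 in GFP+ colonies, 4.74, 4.36 and 3.74 in GFP- colonies and 4.52, 4.39 and 4.76 in iPS cells. Leukemia arrays did not overlap with any other array on either probe set. The difference from iPS cells was 3.79 ± 0.11 on the first (adjusted p = 9.07e-09) and 2.61 ± 0.21 on the second (adjusted p = 1.09e-05).

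Trbv13-2, the beta segment formerly named Vbeta8.2, was raised on its only probe set, 17457694. It read 6.77, 7.19 and 6.84 in leukemia, 3.25, 3.11 and 3.49 in GFP+ colonies, 2.94, 3.42 and 3.61 in GFP- colonies and 3.08, 3.11 and 3.60 in iPS cells. The 3 leukemia arrays were high, and the 9 others spanned one common range. iPS cells were lower by 3.67 ± 0.21 (adjusted p = 6.68e-07). With 1 of 35 beta V segments covered, these arrays do not show whether other beta segments were as high.

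The gamma segments, which T cells of the gamma-delta lineage use, were close to the iPS level. Trgv5 read 3.96, 4.0 and 4.29 in leukemia and 3.70, 3.88 and 3.74 in iPS cells, a difference of -0.31 with a 95% interval of -0.57 to -0.06 (iPS minus leukemia, adjusted p = 0.0767). Trgv6 read 4.71, 4.60 and 4.47 in leukemia and 4.35, 4.40 and 4.51 in iPS cells, a difference of -0.17 with an interval of -0.56 to 0.21 (adjusted p = 0.554). Neither was called in any of the 6 comparisons in this fit. With array weights Trgv5 was called lower in iPS cells than in leukemia (adjusted p = 0.014) and lower in GFP- colonies (adjusted p = 0.0271), and Trgv6 was called higher in GFP- colonies than in leukemia (0.36, adjusted p = 0.0254), in iPS cells (adjusted p = 0.00538) and in GFP+ colonies (adjusted p = 0.0315). Without the 2 colony arrays set apart above, the Trgv5 difference of iPS cells from leukemia was called too (adjusted p = 0.0489). Both intervals end short of a log2 of 1, so a gamma segment as far above iPS cells as the raised alpha segments was not seen.

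Probe sets annotated to one segment did not move together. Trav7-4 had 1 raised probe set of 3, and on the others, 17299796 and 17299991, the leukemia stood 0.18 and -0.06 from iPS cells. For Trav9d-3, 2 of 5 were raised, and the rest stood 0.63 to 0.68 above iPS cells. For Trav12-2 the 5 that were not raised stood 0.35 to 0.75 above, and the third Trav14d-3-dv8 probe set, 17300079, stood 0.94 above. The single Trav3-4 probe set, 17300189, read 3.23, 3.34 and 3.88 in leukemia and 2.50, 2.48 and 2.73 in iPS cells, 0.91 ± 0.16 higher (adjusted p = 0.00176). Which probes each of these sets holds, and which copy of a segment or other part of the locus they match, was not examined here.

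**Figure D2:**
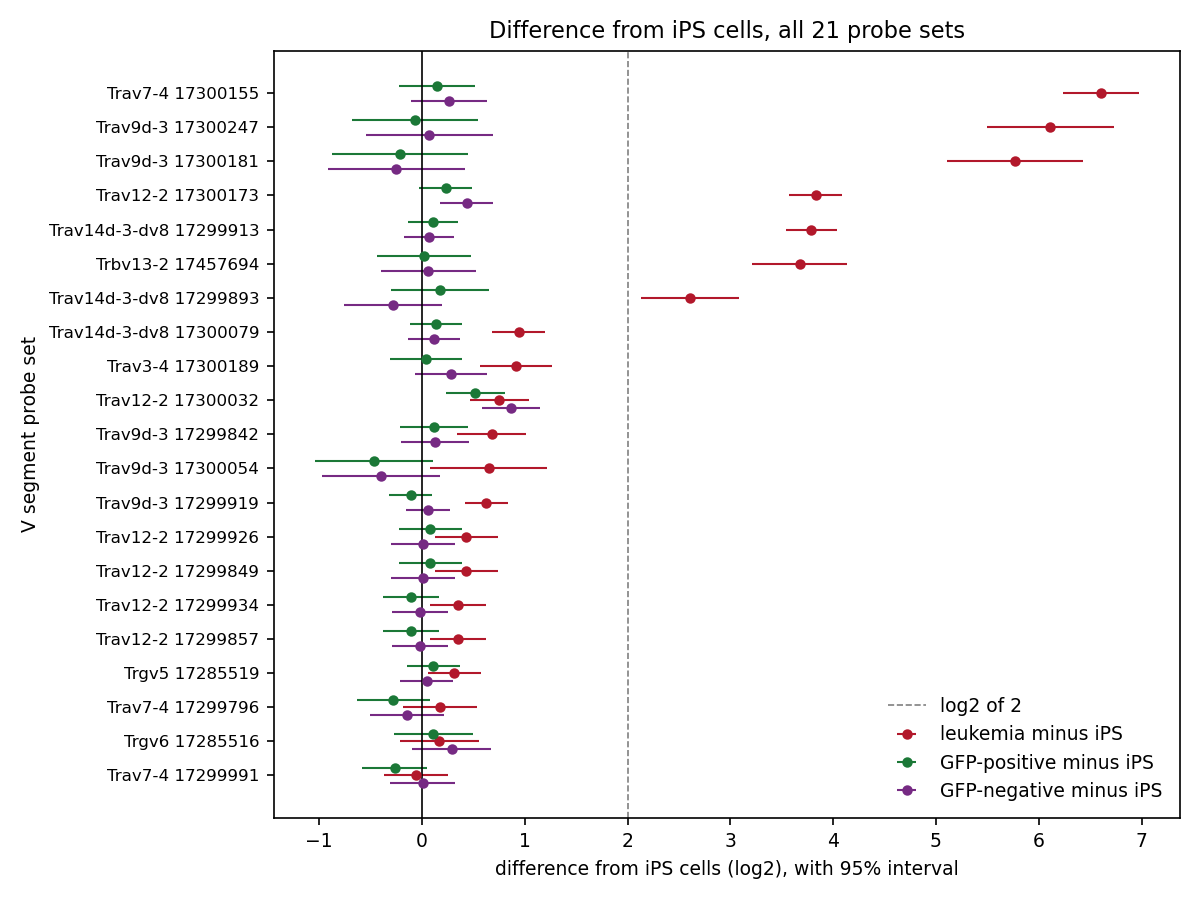
Difference of leukemia, GFP+ and GFP- colonies from iPS cells (log2, with the 95% interval of the limma fit) for all 21 V probe sets, in order of leukemia minus iPS, and a dashed line at a log2 of 2. The 7 raised probe sets lie at 2.61 to 6.60 for leukemia and the other 14 at -0.06 to 0.94, while on the raised probe sets the colony points lie near 0.

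Against the leukemia, V segment probe sets were called lower in every other group, and none was called higher in the main fit. Some differences that were not called were positive, such as 0.12 for Trgv6 in GFP- colonies. In the counts that follow, fell and rose stand for calls. In GFP+ colonies 14 of 21 fell and 0 rose, beside 12.2% of all single-symbol probe sets that were called lower and 9.29% that were called higher. In GFP- colonies 12 fell and 0 rose, beside 11.9% and 8.89%. In iPS cells 14 fell and 0 rose, beside 11.8% and 12.1%. These 3 comparisons share the leukemia arrays, so they do not count as separate evidence. The 7 raised probe sets fell in all 3, but they were chosen by their height above iPS cells on these same arrays. In each comparison the arrays of the 2 groups did not overlap for any called V probe set. The share of all called probe sets without overlap is not given here, so this is not shown to be particular to V segments.

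The median difference over the 21 probe sets was -0.74 in GFP+ colonies, -0.57 in GFP- colonies and -0.68 in iPS cells, and over all probe sets tested it was -0.04, -0.01 and -0.03. The median lies between the raised 7 and the rest, whose called falls were smaller. Trav9d-3 probe set 17300054 fell by 1.12 ± 0.26 in GFP+ colonies (adjusted p = 0.0106) and by 1.05 ± 0.26 in GFP- colonies (adjusted p = 0.0153), the latter not called without leukemia replicate 1 (adjusted p = 0.0598) or replicate 3 (adjusted p = 0.0551). Trav14d-3-dv8 17300079 fell by 0.80 ± 0.12, 0.82 ± 0.12 and 0.94 ± 0.12 in the 3 groups in that order, and Trav9d-3 17299919 fell by 0.74 ± 0.10, 0.57 ± 0.10 and 0.63 ± 0.10. Without GFP+ replicate 3 and GFP- replicate 1, 15, 14 and 18 probe sets fell and 0 rose. The shares of all probe sets called in that fit are not given here, so these counts have no background beside them. In bulk RNA, fewer cells of a type and less RNA per cell cannot be told apart.

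On the colony arrays little V segment signal remained above the iPS level. Over the 7 raised probe sets, the median distance from the iPS mean was 3.89, 3.93 and 3.97 on the leukemia arrays. It was 0.19, -0.13 and 0.23 in GFP+ colonies and 0.18, -0.01 and 0.08 in GFP- colonies. None of the 7 was called between either colony group and iPS cells. For Trav7-4 17300155 the 95% interval of iPS minus GFP+ colonies was -0.52 to 0.22 and of iPS minus GFP- colonies -0.63 to 0.11. For Trbv13-2 these intervals were -0.48 to 0.44 and -0.52 to 0.40. For the raised Trav12-2 probe set 17300173 they were -0.49 to 0.02 and -0.70 to -0.18. The latter lies wholly on the side of higher GFP- colonies, before adjustment over all probe sets. With 3 arrays a group, each interval bounds the remaining excess on its own probe set only, and it is no limit of detection.

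**Figure D3:**
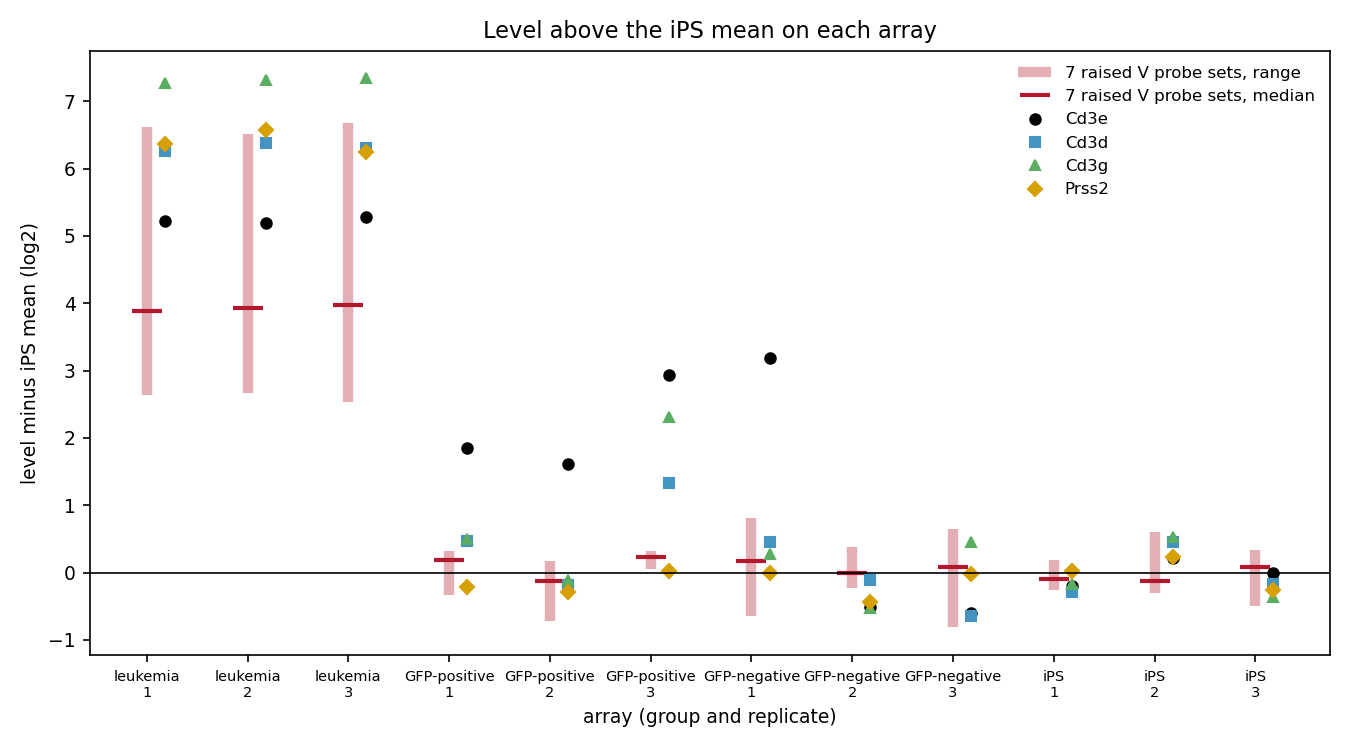
Level above the iPS mean (log2) on each of the 12 arrays: range (bar) and median (line) of the 7 raised V probe sets, with Cd3e, Cd3d, Cd3g and Prss2 as points. V segments and Prss2 lie near 0 on all colony arrays, while Cd3e lies 1.62 to 3.19 above the iPS mean on 4 of 6 colony arrays.

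On 2 Trav12-2 probe sets, 17300173 described above and 17300032, all arrays of both colony groups lay above all iPS arrays. On the Trav3-4 probe set the GFP- arrays did so, at 2.96, 2.83 and 2.77 (iPS minus GFP- colonies -0.28 ± 0.16, adjusted p = 0.36). On Trav7-4 17299991 the order was reversed for GFP+ colonies, at 3.03, 2.90 and 3.0 against 3.32, 3.09 and 3.32 in iPS cells. There iPS minus GFP+ colonies was 0.26 ± 0.14 (limma adjusted p = 0.265). The share of all probe sets without overlap between colonies and iPS cells is not given here. Probe set 17300032, not one of the 7, read 7.66, 7.85 and 7.92 in leukemia, 7.51, 7.64 and 7.58 in GFP+ colonies, 8.07, 8.06 and 7.64 in GFP- colonies and 7.05, 7.06 and 7.05 in iPS cells. All colony and leukemia arrays lay above all iPS arrays, and GFP- colonies overlapped with the leukemia. It was the single V probe set called between colonies and iPS cells: 1 of 21 was lower in iPS cells than in GFP+ colonies, beside 4.01% of all probe sets, and 1 of 21 lower than in GFP- colonies, beside 1.25%. In neither was a V probe set higher in iPS cells, beside 6.1% and 2.95% of all.

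The difference of iPS cells from GFP- colonies on Trav12-2 17300032 was -0.87 ± 0.13 (adjusted p = 0.00677), which was not called when those groups were fitted alone (adjusted p = 0.0668). From GFP+ colonies it was -0.52 ± 0.13 (adjusted p = 0.0314), a call that was lost without any 1 of the 6 arrays compared (adjusted p 0.053 to 0.101). GFP- replicate 1 stood 1.01 above the highest iPS array, which made 17300032 the only V probe set to pass a log2 of 1 on any colony array. On that array 6.71% of all probe sets did so. On the other colony arrays 0 of 21 did, beside 5.28%, 2.67% and 7.24% of all probe sets on GFP+ replicates 1 to 3, and 1.87% and 2.01% on GFP- replicates 2 and 3. The raised Trav12-2 probe set 17300173 was lower in iPS cells than in GFP- colonies by -0.44 ± 0.12 (adjusted p = 0.0661), and this difference was called without GFP- replicate 1 (-0.51, adjusted p = 0.0439). It was also called with cyclic loess (limma adjusted p = 0.0437), with array weights (0.00716) and without both arrays set apart (0.0303). It was not called when those groups were fitted alone.

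Between the colony groups no V probe set was called either way, beside 0% of all probe sets. At an unadjusted p under 0.05, 1 of 21 differed, beside 6.31% of all. The largest differences were -0.45 ± 0.21 for Trav14d-3-dv8 17299893 (GFP- minus GFP+, adjusted p = 0.769) and 0.35 ± 0.13 for Trav12-2 17300032 (adjusted p = 0.757). Neither passed the test, and their intervals, -0.93 to 0.02 and 0.06 to 0.63, bound how far the colony groups could differ on these probe sets.

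Genes of the receptor's signalling and assembly machinery followed the V segments down. The list held CD3 chains, the pre-T alpha chain, recombination factors, coreceptors and T lineage regulators, and 19 of 23 were measured. In each of the 3 comparisons with leukemia all 19 fell. Of all single-symbol probe sets, 12.2% fell in GFP+ colonies, 11.9% in GFP- colonies and 11.8% in iPS cells. The median differences of the list were -3.87 in GFP+ colonies, -4.47 in GFP- colonies and -4.26 in iPS cells. Ptcra, the pre-T alpha chain, read 9.09, 8.95 and 9.03 in leukemia and 6.14 to 6.50 on all other arrays. Dntt, the polymerase that adds bases at the joins, read 9.94, 10.20 and 10.01 against 4.38 to 5.06. The coreceptors Cd4 and Cd8b1 were both high in leukemia, at 8.28 ± 0.18 and 11.52 ± 0.02, and fell in iPS cells by 3.34 ± 0.13 and 5.78 ± 0.34. Rag2, a recombinase subunit, fell by a smaller 0.91 ± 0.15 (adjusted p = 0.0016).

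Cd3e, a chain of the complex that carries the receptor's signal, differed from the V segments on colonies. It read 11.86, 11.83 and 11.92 in leukemia, 8.50, 8.26 and 9.57 in GFP+ colonies, 9.83, 6.13 and 6.04 in GFP- colonies and 6.43, 6.85 and 6.63 in iPS cells. All GFP+ arrays and GFP- replicate 1 lay above the iPS arrays, and the other GFP- arrays lay below them. The difference of iPS cells from GFP+ colonies, -2.14 ± 0.82, did not pass the test (adjusted p = 0.124). Its partners Cd3d and Cd3g stood 1.34 and 2.31 above the iPS mean on GFP+ replicate 3 and within 0.51 of it or below it on the other colony arrays. On the same replicate 3 the means of the leukocyte and macrophage markers were the highest of the colony arrays (8.97 and 9.29), and the median of the raised V probe sets was 0.23. On GFP- replicate 1, the colony array with the highest Cd3e, these marker means were 7.47 and 7.06, and on GFP- replicate 2, where Cd3e was 6.13, they were 6.78 and 8.02. The part of other blood cells in the Cd3e values was not tested.

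The genes lying among or beside the receptor loci did not follow as a group. Of 12 listed neighbours 11 were measured. In GFP+ colonies 4 were lower and 2 higher than in leukemia, beside 12.2% and 9.29% of all single-symbol probe sets. In GFP- colonies 3 were lower and 2 higher, beside 11.9% and 8.89%. In iPS cells 4 were lower and 2 higher, beside 11.8% and 12.1%. Abhd4, near the alpha locus, rose by 2.37 ± 0.14, 2.69 ± 0.14 and 2.44 ± 0.14, and Stard3nl, near the gamma locus, rose by 0.85 ± 0.24, 1.40 ± 0.24 and 1.48 ± 0.24. Among the trypsinogen genes embedded in the beta locus, Try4 fell by 1.25 ± 0.21, 1.28 ± 0.21 and 1.35 ± 0.21.

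Prss2, another of these trypsinogen genes, was bright in the leukemia and low elsewhere on the probe set annotated to it. Trypsinogens are digestive enzyme precursors of the pancreas, and in RefSeq Prss2 is the neighbour of the beta D segment Trbd1. It read 10.58, 10.78 and 10.45 in leukemia, 3.99, 3.92 and 4.22 in GFP+ colonies, 4.20, 3.77 and 4.19 in GFP- colonies and 4.23, 4.44 and 3.94 in iPS cells. The leukemia arrays were high and the others formed one low range. Whether these probes read trypsinogen RNA or another transcript of the beta locus was not tested. The fall was 6.56 ± 0.17 in GFP+ colonies (limma adjusted p = 4.97e-09), and the differences were -6.55 ± 0.17 in GFP- colonies and -6.40 ± 0.17 in iPS cells.

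The promoter of Prss2 is shown because, among the 11 measured neighbours, this gene had the largest fall in all 3 comparisons with leukemia. The 300 bases run 5′ to 3′ on the plus strand at chr6:41521526-41521825 (GRCm38.p6), around the start, with matches to 2 motifs in capitals.
Prss2: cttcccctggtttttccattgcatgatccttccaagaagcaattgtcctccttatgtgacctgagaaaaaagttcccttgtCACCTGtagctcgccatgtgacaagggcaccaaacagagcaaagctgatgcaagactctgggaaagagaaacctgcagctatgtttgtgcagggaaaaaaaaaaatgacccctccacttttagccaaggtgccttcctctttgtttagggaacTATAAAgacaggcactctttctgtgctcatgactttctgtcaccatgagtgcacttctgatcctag
The capitals mark an E-box, CAGGTG read on the other strand as CACCTG, with its first base at -169 from the start, and the TATA motif TATAAA at -16. On both strands of 32851 promoters of this length, 20.2% hold the E-box and 13.6% the TATA motif. The RUNX motif TGTGGT (16.8%) and the GATA motif AGATAA (11.2%) were searched too and have no match in this window. A match describes the letters and does not show a site in use, nor that the RNA measured starts at this promoter.

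Immunoglobulin segments, which B cells join by the same recombinase, were set beside the T cell receptor segments. Of 27 probe sets naming 1 immunoglobulin segment or heavy chain gene, 15 were lower in iPS cells than in leukemia and 0 higher, beside the same 11.8% and 12.1%. Of these, 6 stood above iPS cells by a log2 of 2 or more. Their spread over the leukemia arrays was a median SD of 0.40, with a range of 0.06 to 1.26, and 4 of 6 exceeded 0.25. The raised T cell receptor probe sets had a median SD of 0.09, with a range of 0.06 to 0.22, and 0 of 7 exceeded 0.25. This contrast is a description and was not tested.

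The Ighm probe set 17284660, for the heavy chain of IgM, read 8.11, 6.85 and 5.65 on the leukemia arrays, and the lambda segment Iglv1 read 6.35, 7.17 and 6.51. On the first, the highest and lowest leukemia arrays lay more than a log2 of 2 apart. The Ighm probe set 17284349 was even across them, at 12.12, 12.24 and 12.20. Of the 6 measured B cell markers 4 were lower in each group than in leukemia, beside 11.8% to 12.2% of all single-symbol probe sets. The mean of the list was 6.04 to 6.09 on leukemia arrays and 5.36 to 5.72 on the others.

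**Figure D4:**
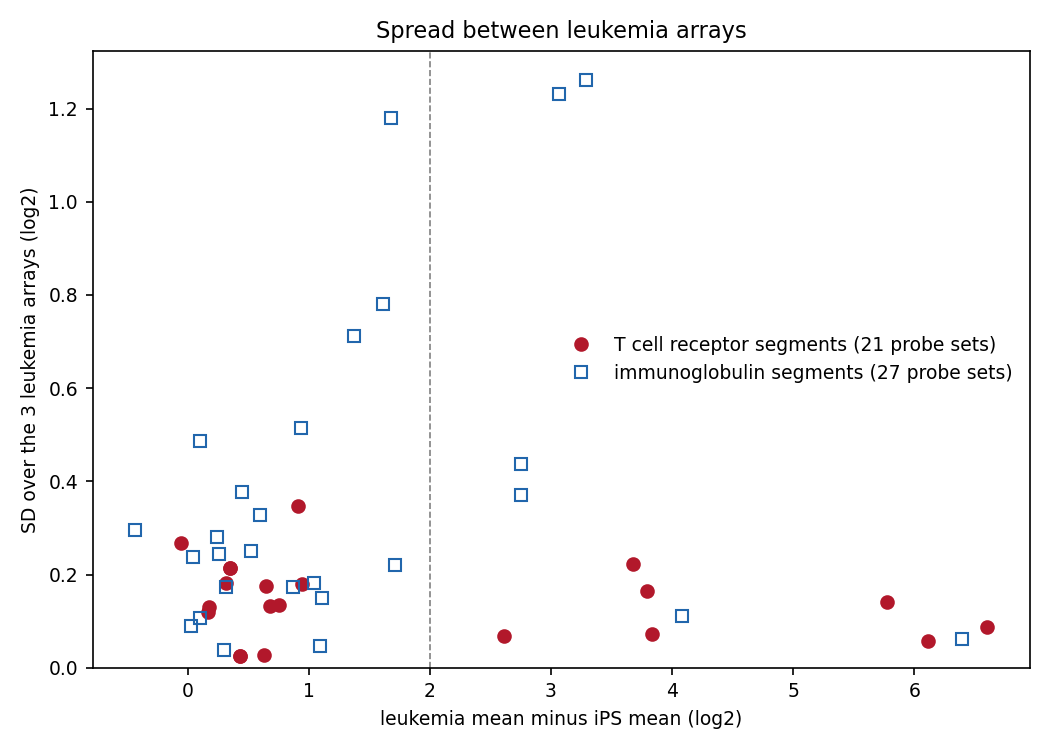
SD over the 3 leukemia arrays (log2) against leukemia mean minus iPS mean (log2), for 21 T cell receptor and 27 immunoglobulin probe sets, with a dashed line at a log2 of 2. Right of the line, the 7 T cell receptor points lie at SDs of 0.06 to 0.22 and the 6 immunoglobulin points reach 1.26.

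Over all 21 T cell receptor probe sets the median SD between leukemia arrays was 0.14, beside 0.11 for all single-symbol probe sets. It was 0.10 beside 0.22 in GFP+ colonies, 0.23 beside 0.24 in GFP- colonies and 0.12 beside 0.10 in iPS cells. The 3 leukemia arrays thus gave the same V probe sets at nearly the same level. Whether these arrays came from 1 leukemia or several is not stated in the labels.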

How the data were processed

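For every probe set the authors deposited a log2 level on each array, computed with RMA per the submitters' processing notes, with the software not given in the sources used here. RMA equalises array distributions, which would hide a shift shared by most genes, and no detection values were used. The platform annotation names 1 symbol for 23521 probe sets, several for 1814 and none for 16010; only the first were tested. All 21 segment probe sets match a RefSeq V segment. Of the 23521, 70 repeat another's values.

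The 12 arrays entered a single linear model of group means (lmFit and eBayes of limma 3.58.1, R 4.3.3) that gave 6 comparisons. The steps were tested on simulated data. The members and lists were chosen with earlier results of these data known.

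Named were up to 12 called segments with the largest fall and 5 with the largest rise against leukemia whose arrays do not overlap, up to 5 called each way between other groups, the 5 with the largest difference between colony groups, and segments at least a log2 of 1 above the highest iPS array on a colony array. Other segments were named to account for every probe set of a symbol, and genes of the lists were chosen as examples after their values were seen. The lists also covered gamma-delta T cell, NK cell, erythroid, epithelial and fibroblast markers.

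Alternatives were cyclic loess, array weights, subtracted array medians, a trended robust fit, all probe sets, dim ones left out, 1 probe set per symbol, only the 2 groups compared, a replicate block and each array left out. Replicate numbers were not used to pair the samples in the main fit. Deviations of same-numbered arrays correlated at -0.38 to 0.33, and 2 of 18 pairs exceeded 0.1. Both were of GFP+ with GFP- colonies, at 0.16 for replicate 1 and 0.33 for replicate 2, against -0.38 for replicate 3. With 3 arrays a group these values cannot settle whether the numbers pair the samples. The precision is limited by the number of arrays.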

Additional observations from a re-analysis of the deposited data

Results flagged for a closer look

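One signal lay outside the 21 probe sets. The annotation gives 1 further probe set several symbols, of which 1 is a T cell receptor segment, and it was left out of all comparisons because its signal cannot be assigned to a gene. Its mean was 8.14 ± 0.21 (SD) in leukemia, 4.98 ± 0.20 in GFP+ colonies, 4.90 ± 0.08 in GFP- colonies and 5.12 ± 0.14 in iPS cells. The leukemia thus stood 3.02 above iPS cells on the log2 scale, which was noted because it exceeds the level in the other groups. The difference was not tested.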

How the results depend on the processing

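The falls of the 7 raised probe sets against leukemia were called in all 336 fits run under the alternatives. The highest adjusted p of limma was 0.0011 and the smallest fall was -2.35. The 7 were chosen by their height above iPS cells on these same arrays, so such calls could hardly fail and are no separate support. No result reversed. With 1 probe set per symbol, 5 of 8 were lower in each comparison with leukemia, with medians of -1.66 (GFP+), -1.76 (GFP-) and -1.76 (iPS), and 0 differed between iPS cells and either colony group. Leaving out dim probe sets kept 11, of which 7 were lower in GFP+ colonies and 7 in iPS cells than in leukemia, with medians of -0.46 (GFP+) and -0.42 (GFP-). The counts here are over fewer probe sets, and the medians depend on which were kept. The shares of all probe sets called under each alternative are not given here. The counts of V probe sets in this section therefore have no background beside them. The cause of the following was not tested. Cyclic loess gave 2 lower in iPS cells than in GFP- colonies, and 12 lower than leukemia in GFP+ colonies and in iPS cells, losing Trav12-2 17299857 and 17299934 in the first (adjusted p = 0.0836) and 17299849 and 17299926 in the second (adjusted p = 0.0799). Array weights, whose estimate stopped short of its tolerance, gave 1 higher in GFP- colonies than in leukemia, 2 higher in iPS cells than in GFP+ colonies, 3 lower in iPS cells than in GFP- colonies and 3 higher in GFP- than in GFP+ colonies. In the fit of only the groups compared, 0 were lower in iPS cells than in GFP- colonies, and 3 smaller falls in GFP- colonies against leukemia were lost: Trav9d-3 17300054 (adjusted p = 0.0582), Trav3-4 (0.0822) and Trav9d-3 17299842 (0.0837). Without both arrays that stood apart, a setting chosen after seeing the data, 1 was higher in iPS cells than in GFP+ colonies and 2 lower than in GFP- colonies.

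The counts for leaving out 1 array at a time cover the arrays of the 2 groups compared. Against leukemia they were 11 to 15 lower in GFP+ colonies, 10 to 14 in GFP- colonies and 12 to 14 in iPS cells. There were 0 lower in iPS cells than in GFP+ colonies, and 1 to 2 lower than in GFP- colonies, the 2 without GFP- replicate 1. Leaving out an array of another group could add calls. Without GFP- replicate 1, Trav7-4 17299796 and Trav12-2 17299849 were also called lower in GFP+ colonies than in leukemia (limma adjusted p = 0.0382 and 0.0267). Falls of Trav9d-3 17299842 in colonies were lost without leukemia replicate 2 or 3, GFP+ replicate 2 or GFP- replicate 2 (adjusted p 0.0605 to 0.0988). With the replicate block, 0 were lower in iPS cells than in GFP+ colonies, since Trav12-2 17300032 missed the threshold (adjusted p = 0.0516), 12 were lower in iPS cells than in leukemia, and no other count changed. Cyclic loess moved the share of higher among all called probe sets from 43.2% to 56.3% (GFP+ against leukemia), from 42.8% to 52.9% (GFP- against leukemia) and from 60.3% to 49.6% (iPS against GFP+), while 0 V segments were called higher than in leukemia.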

Other observations

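Markers of other lymphocytes were measured beside the V segments. Of 8 NK cell markers 3 were lower in iPS cells than in leukemia and 0 higher, and the largest fall was that of Gzma, a granule protease of cytotoxic lymphocytes, from 8.58 ± 0.14 (SD) to 3.85 ± 0.34 (-4.73 ± 0.28, limma adjusted p = 1.05e-06). Of 5 measured gamma-delta or innate-like T cell markers 3 were lower in iPS cells and 0 higher: Cd163l1 fell by 1.16 ± 0.19, Blk by 0.90 ± 0.17 and Zbtb16 by 0.58 ± 0.16. Sox13 went the other way, at 0.50 ± 0.20 in iPS cells (adjusted p = 0.105), and was called higher than in leukemia in GFP+ colonies (0.93 ± 0.20, adjusted p = 0.00773) and in GFP- colonies (0.72 ± 0.20, adjusted p = 0.0295). The erythroid list had 3 of 3 measured genes lower in iPS cells than in leukemia. The epithelial list had 3 of 5 and the fibroblast list 5 of 6 higher. Macrophage markers had 1 lower and 1 higher of 8. Beside all these lists, 11.8% of all single-symbol probe sets were lower in iPS cells than in leukemia and 12.1% higher.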
